A study of Mus musculus with 13 samples.

Results

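The 8 genes described here encode proteins of the primary (azurophil) granule of neutrophils and of the promyelocyte stage that makes it: Mpo, Elane, Prtn3, Ctsg, Prss57, Ms4a3, Ctsc and Serpinb1a. They were chosen by name from 55536 genes in the RNA-seq files, and each matched 1 Ensembl gene. The RNA came from bone marrow neutrophils freshly isolated from wild-type (WT) mice. Cells were treated with RNase A outside the cells for 10 min at 37 °C in HBSS, a salt buffer (exRNaseA, n = 2 libraries), or were mock treated (mock, n = 2 libraries), and poly(A)-selected RNA was sequenced. The labels name no other allele or agent for either group. Because the protocol text on the mock libraries also mentions RNase A, the groups were taken from the title and treatment fields. The libraries are called biological replicates, but separate animals are not named, and the p-values therefore measure the spread between these 4 libraries, which may be technical. The libraries held 20661683 and 22870322 expected counts (exRNaseA) and 23722494 and 20798960 expected counts (mock).

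Neutrophils fill their granules in order as they mature in the marrow. Promyelocytes make the primary granules, which hold myeloperoxidase and serine proteases, and then stop transcribing most of these genes, while myelocytes and later cells make the secondary and tertiary granules. In a marrow preparation the messages of most primary granule genes would therefore come largely from the youngest cells. The finished proteins remain in the granules of mature cells. Which cells the messages came from was not tested here. In bulk RNA, fewer cells of a stage and less RNA per cell cannot be told apart.

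The labelled cell type had its markers: the 12 neutrophil markers had mean levels of 432 TPM (Ly6g) or more, where TPM is a level scaled by transcript length and library size. Markers of other cells were also present. Summed over their lists they stood at 1131 ± 12.1 TPM in exRNaseA and 1129 ± 7.35 TPM in mock libraries for monocytes and macrophages, mostly Ly6c2, which neutrophils also express. They stood at 474 ± 14.8 and 488 ± 6.91 TPM for eosinophils, basophils and mast cells, at 5090 ± 11.5 and 4938 ± 98.0 TPM for erythroid cells, at 38.5 ± 0.16 and 34.2 ± 1.03 TPM for stem and progenitor cells, at 1834 ± 6.36 and 1833 ± 7.59 TPM for B cells and at 46.4 ± 0.96 and 46.1 ± 0.21 TPM for T and NK cells (mean ± SD, exRNaseA first, n = 2 each). Of the 13 eosinophil, basophil and mast cell markers 1 was listed at 0 in all 4 libraries, the mast cell tryptase Tpsb2. The sum of that list was mostly Prg2, an eosinophil gene, at 408 ± 16.9 TPM in exRNaseA and 420 ± 5.42 TPM in mock libraries. Of the 6 lists of other cells edgeR, DESeq2 and limma called 0 genes, where edgeR called 0.0917% of all tested genes. At an unadjusted p under 0.05 edgeR had 1 of 12 tested monocyte and macrophage markers. It had 2 of 11 tested eosinophil, basophil and mast cell markers and 0 of the others, beside 6.35% of all tested genes. The part of these cells in the levels below was not tested; some primary granule genes are also transcribed by monocyte progenitors, basophils or mast cells.

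All 8 genes were expressed, in the same order of level in every library. Mpo and Serpinb1a were the highest, the proteases Elane, Prtn3 and Ctsg followed, then Ms4a3 and Ctsc, and Prss57 was the lowest. The lowest library of each gene lay above the highest library of the next, so no neighbours in this order overlapped. The steps between neighbours were 1.28-fold from Mpo to Serpinb1a, 1.86-fold to Elane, 1.62-fold to Prtn3, 1.23-fold to Ctsg, 1.45-fold to Ms4a3, 1.76-fold to Ctsc and 3.70-fold to Prss57. The order used mean TPM over the 4 libraries; by library-scaled counts (CPM), which are not per length, Ctsc stood between Elane and Prtn3.

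**Figure D1:**
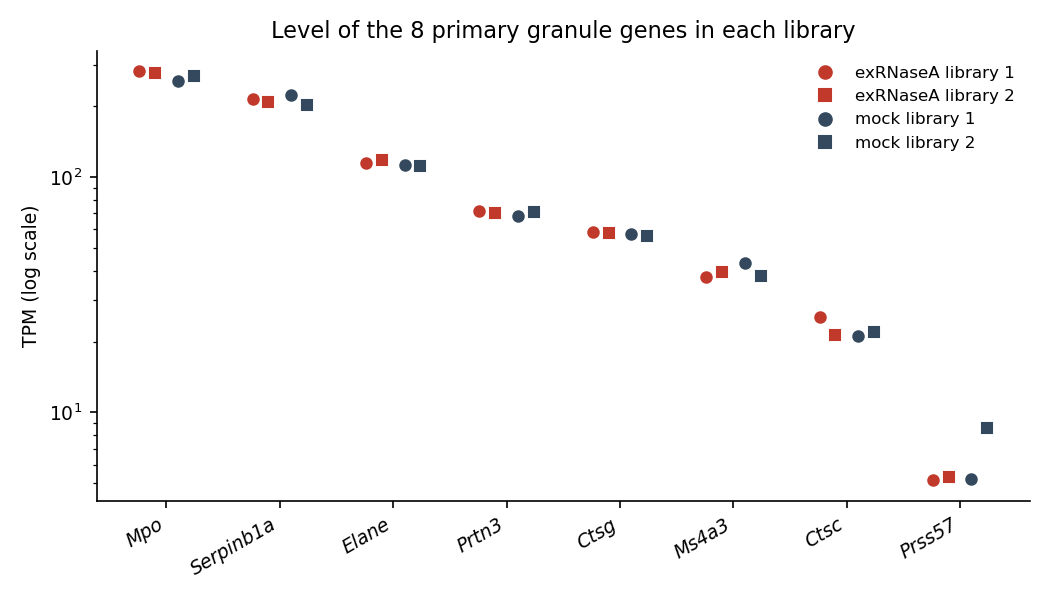
Level in TPM (log axis) of each of the 8 genes in the 2 exRNaseA libraries (red) and the 2 mock libraries (dark blue). The genes run from Mpo at a mean of 271 TPM to Prss57 at 6.07 TPM, and the mock library 2 of Prss57 stands apart at 8.60 TPM.

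Mpo encodes myeloperoxidase, the haem enzyme that makes hypochlorous acid from hydrogen peroxide and chloride. The gene (ENSMUSG00000009350.13) lies on chromosome 11 from 87793784 to 87804412 (mm10, RefSeq span). It had 281.4 and 277.4 TPM in exRNaseA libraries and 256.1 and 268.9 TPM in mock libraries. Both exRNaseA libraries lay above both mock libraries, by little. It ranked 452 by mean TPM among all genes, of which 12803 reached a mean of 1 TPM, and it took 34.8 ± 0.07% of the summed TPM of the 8 genes in exRNaseA and 33.6 ± 1.45% in mock libraries.

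Serpinb1a (ENSMUSG00000044734.16, chromosome 13, 32842092 to 32853206, mm10) encodes a cytosolic serpin that inhibits elastase, proteinase 3 and cathepsin G and so guards the cell against leaked granule proteases. It had 213.5 and 208.8 TPM in exRNaseA libraries and 222.4 and 201.8 TPM in mock libraries. The exRNaseA values lay between the mock values. Set against the 4 serine proteases Elane, Prtn3, Ctsg and Prss57 together (251 ± 0.97 TPM in exRNaseA and 245 ± 2.0 TPM in mock libraries), the message of this inhibitor stood at a ratio of 0.84 ± 0.02 in exRNaseA and 0.87 ± 0.07 in mock libraries.

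Elane encodes neutrophil elastase and Prtn3 encodes proteinase 3, serine proteases of the chymotrypsin fold that cut after small aliphatic residues. They are neighbours on chromosome 10 (mm10), Prtn3 (ENSMUSG00000057729.12) from 79879667 to 79883174 and Elane (ENSMUSG00000020125.7) from 79886312 to 79888216. Elane had 114.5 and 118.0 TPM in exRNaseA libraries and 112.3 and 111.0 TPM in mock libraries. Prtn3 had 71.9 and 70.3 TPM in exRNaseA libraries and 68.5 and 70.8 TPM in mock libraries. The exRNaseA libraries of Elane lay above the mock libraries by TPM, while those of Prtn3 overlapped them; by CPM, below, both genes overlapped. The ratio of Elane to Prtn3 was 1.59 and 1.68 in exRNaseA libraries and 1.64 and 1.57 in mock libraries, a range smaller than the steps between neighbours in the order of levels.

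The promoters of these neighbours are shown because the genes lie side by side and because the elastase promoter is a textbook case of joint control by PU.1, MYB and C/EBP factors. The stretches below are from RefSeq (GRCm38.p6, which is mm10), plus strand, from 110 bases before to 9 bases after the annotated start site, Elane at chr10:79886202-79886321 and Prtn3 at chr10:79879557-79879676. Capitals mark AGGAAGT, a core that PU.1 and other ETS factors bind, AACGGC, a core that MYB binds, and GCAAT, a part of C/EBP sites. These letters were searched on both strands after the sequences had been seen.
Elane: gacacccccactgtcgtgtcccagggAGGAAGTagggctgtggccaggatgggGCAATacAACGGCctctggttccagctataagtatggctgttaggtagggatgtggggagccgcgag
Prtn3: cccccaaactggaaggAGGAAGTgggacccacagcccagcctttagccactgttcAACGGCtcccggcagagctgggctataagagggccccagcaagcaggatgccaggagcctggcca
Counted from the start site, AGGAAGT began at position -84 in Elane and -94 in Prtn3, and AACGGC began at -50 in Elane and -55 in Prtn3, in the same order on the same strand. No marked motif overlapped another.

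Ctsg (ENSMUSG00000040314.2, chromosome 14, 56099885 to 56102574, mm10) encodes cathepsin G, a granule serine protease that lies apart from the chromosome 10 pair, in the region that also holds granzyme and mast cell protease genes. It had 58.5 and 57.8 TPM in exRNaseA libraries and 57.5 and 56.0 TPM in mock libraries. The exRNaseA libraries lay just above the mock libraries in TPM, and overlapped them in CPM. Across the promoters of the 6 genes that had one in the RefSeq table, AGGAAGT was present in 5 (Mpo, Elane, Prtn3, Ctsg and Ctsc, not Ms4a3), AACGGC in 2 (Elane and Prtn3) and GCAAT in 3 (Elane, Mpo and Ms4a3). The GCAAT of Ms4a3 lay past the start site, at positions 40 to 44. Of 32544 distinct mouse promoters of the same 300 bases, 9.27% held AGGAAGT, 5.06% AACGGC and 26.2% GCAAT. The motifs were chosen after these promoters had been seen, so the counts cannot be read as enrichment. The Mpo stretch (plus strand, chr11:87793534-87793593) and the Ctsg stretch (minus strand, chr14:56102745-56102804) show AGGAAGT further from the start than in the chromosome 10 pair. It began at positions -223 in Mpo and -206 in Ctsg.
Mpo: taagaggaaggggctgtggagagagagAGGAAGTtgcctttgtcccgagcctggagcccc
Ctsg: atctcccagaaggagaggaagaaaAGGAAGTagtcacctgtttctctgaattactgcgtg
A match is a run of letters and no factor was measured at these promoters.

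Ms4a3 (ENSMUSG00000024681.11, chromosome 19, 11629499 to 11640851, mm10) encodes a 4-pass membrane protein that marks granulocyte and monocyte progenitors. It had 37.5 and 39.5 TPM in exRNaseA libraries and 43.3 and 37.9 TPM in mock libraries. Mock library 1 was the high one, and the groups overlapped. Ctsc (ENSMUSG00000030560.17, chromosome 7, 88278024 to 88315861, mm10) encodes cathepsin C, the dipeptidyl peptidase that activates the granule serine proteases by removing their N-terminal dipeptide. It had 25.3 and 21.4 TPM in exRNaseA libraries and 21.2 and 21.9 TPM in mock libraries. Library 1 of exRNaseA was high, and its isoform-weighted length as RSEM gave it was the shortest of the 4 libraries, 2217 bases against 2350 to 2615 in the others, while the Ctsc CPM stayed between 33.5 and 35.8.

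Prss57 (ENSMUSG00000020323.14, chromosome 10, 79781474 to 79794684, mm10) encodes neutrophil serine protease 4, a granule protease that cuts after arginine. It had 5.15 and 5.29 TPM in exRNaseA libraries and 5.22 and 8.60 TPM in mock libraries. Mock library 2 alone was high in TPM. The expected counts behind these values were 160.88 and 148.8 in exRNaseA libraries and 196.65 and 201.6 in mock libraries, before scaling for library size. Scaled, the mock libraries stood at 8.37 and 9.78 CPM, so mock library 2 was the higher by count too. The isoform-weighted lengths were 2345 and 1971 bases in exRNaseA libraries and 2441 and 1796 bases in mock libraries, and the library with the shortest length had the highest TPM. The length spread 1.36-fold over the libraries for Prss57, 1.18-fold for Ctsc, and by at most 1.03-fold for the other 6 genes; Elane has 1 annotated transcript and a fixed length of 984 bases.

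**Figure D2:**
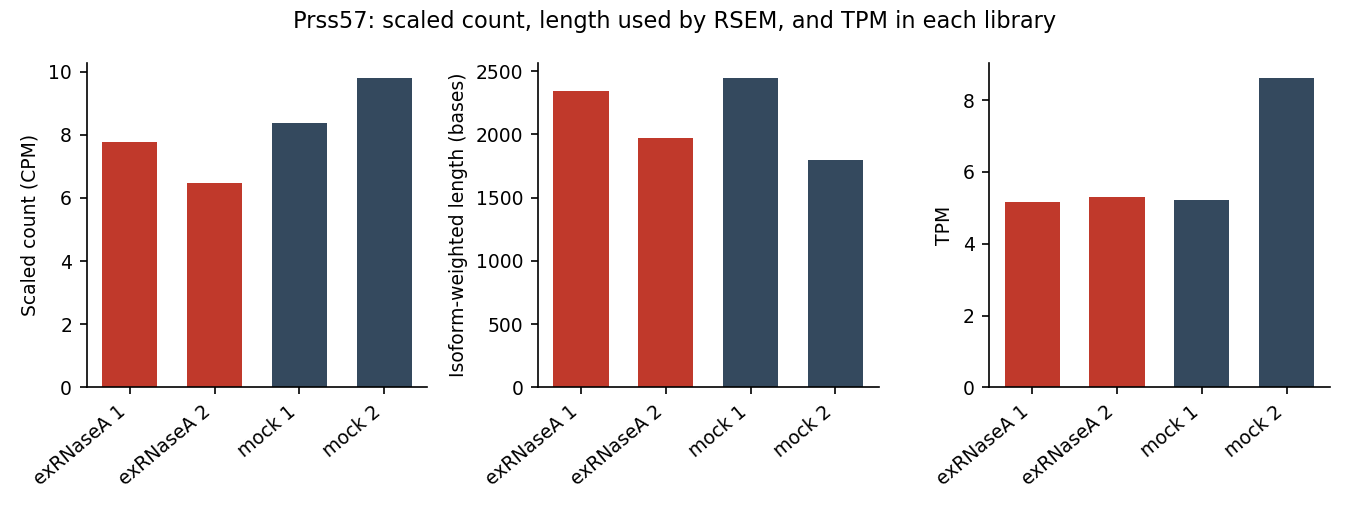
Prss57 in the 2 exRNaseA libraries (red) and the 2 mock libraries (dark blue): CPM on the left, isoform-weighted length in bases in the middle and TPM on the right. Mock library 2 has 9.78 CPM, the shortest length (1796 bases) and 8.60 TPM.

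The Prss57 counts were not whole in any library, as happens where a quantification splits reads between genes. In each library the fraction was completed to a whole number by the count of 1 other gene, Fstl3, within a tolerance of 0.011 counts, and by no other gene in all 4 libraries. Fstl3, a follistatin-like secreted protein, overlaps Prss57 over 1157 bases at its edge. Fstl3 held 28.1 and 34.2 counts in exRNaseA libraries and 43.4 and 51.4 counts in mock libraries, and the sums with Prss57 were 189 and 183 against 240 and 253. Palm overlaps the other edge of Prss57 over 1113 bases and had whole counts. No source used here says whether counting used strand, and without strand the reads of overlapping genes cannot be told apart. This search was made after the values were seen. Mpo counts were split with Gm11505 in the same way, but this gene held 3.09 to 5.14 counts beside 8268 to 9322 counts of Mpo. The other 6 genes had whole counts in all 4 libraries.

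The neighbours of these proteases on chromosome 10 stood at very different levels. Cfd, which encodes complement factor D and lies next beyond Elane after the pseudogene Gm19810, had 0 and 1 count in exRNaseA libraries and 0 and 0 in mock libraries, while Elane had 1309 and 1476 counts in exRNaseA and 1485 and 1281 in mock libraries. Between Prss57 and Prtn3, Ptbp1, which encodes a splicing regulator, had 99.6 and 103 TPM in exRNaseA and 110 and 105 TPM in mock libraries. Palm, which encodes the membrane-associated paralemmin, had 67.0 and 70.9 TPM in exRNaseA and 76.7 and 67.8 TPM in mock libraries. Plppr3 stood at 3.05 ± 0.12 TPM in exRNaseA and 2.65 ± 0.42 TPM in mock libraries, Rnf126 at 12.0 ± 0.13 and 10.0 ± 0.71 TPM, and Misp and E130317F20Rik under 0.3 TPM in every library; Mir6910 and Gm19810 were listed at 0. Of 11 such neighbours 10 were in the files and 5 were tested, of which edgeR, DESeq2 and limma called 0. In edgeR 1 of the 5, Palm, had an unadjusted p under 0.05, beside 6.35% of all tested genes. The log2 change of Palm by counts was 0.09, while its mean TPM was lower in exRNaseA (68.9 ± 2.79) than in mock libraries (72.2 ± 6.29).

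Against the later granules the early genes were scarce. The summed level of the 8 genes was 808 and 798 TPM in exRNaseA libraries and 787 and 777 TPM in mock libraries, while 16 secondary and tertiary granule genes summed to 54365 ± 491 TPM in exRNaseA and 54880 ± 375 TPM in mock libraries. The 8 genes were therefore at 1.48 ± 0.03% of the later granule genes in exRNaseA and 1.42 ± 0.003% in mock libraries. In reads, they took 0.0841 ± 0.0006% of all counts in exRNaseA and 0.0831 ± 0.0010% in mock libraries. The highest of the 8, Mpo, stood below Ngp (neutrophilic granule protein, 22112 TPM in exRNaseA and 22377 TPM in mock), Ltf (lactoferrin, 8259 and 8361 TPM) and Lcn2 (lipocalin 2, 8080 and 8151 TPM), all secondary granule genes. The summed TPM of the 8 genes was higher in both exRNaseA libraries (log2 ratio of means 0.04), but by scaled counts the ratio was -0.00, so this order rests on the TPM scale.

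**Figure D3:**
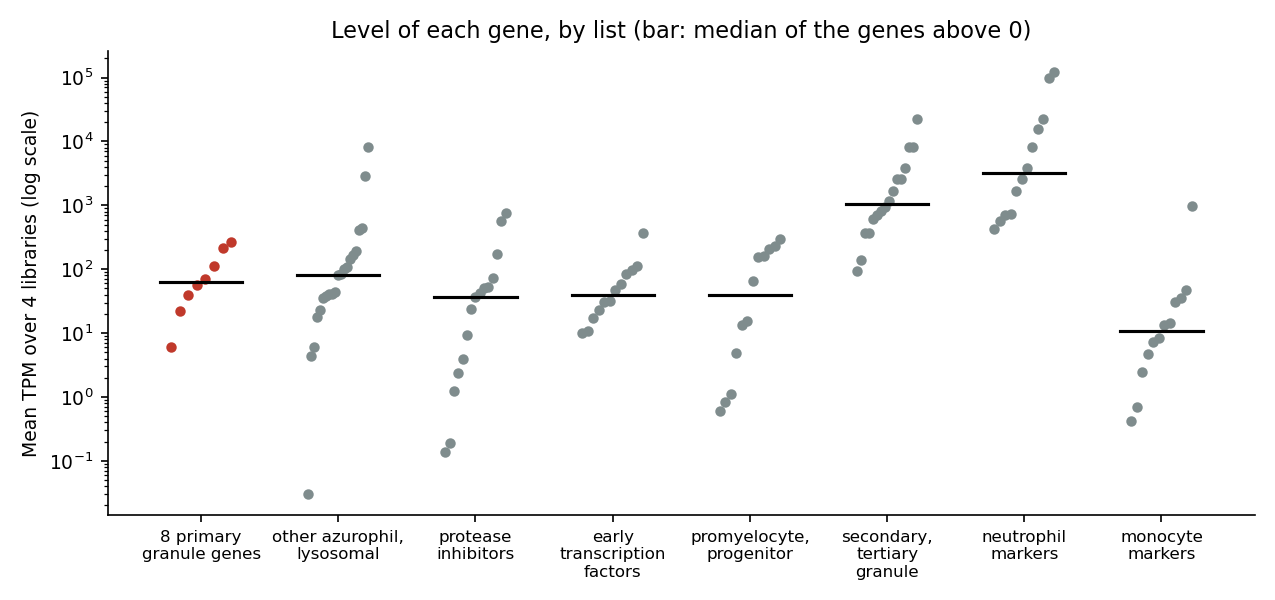
Mean TPM over the 4 libraries (log axis) of each gene above 0, by list, with the 8 primary granule genes in red and a bar at each median. The median of the 8 genes is 63.9 TPM, that of the 16 secondary and tertiary granule genes 1059 TPM and that of the 12 monocyte markers 10.9 TPM.

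The comparison of exRNaseA with mock addressed whether RNase A outside intact neutrophils alters the relative levels of the RNA inside them. Scaling between libraries removes a change common to all genes, so such a change was not tested. None of the 8 primary granule genes passed the test: Mpo, Elane and Ctsc had log2 changes of 0.04, 0.02 and 0.06, and Ctsg, Prtn3, Serpinb1a, Ms4a3 and Prss57 of -0.00, -0.02, -0.06, -0.11 and -0.35. The quasi-likelihood test of edgeR, adjusted by Benjamini-Hochberg over 14184 tested genes, called 0 of the 8, where it called 0.0917% of all tested genes (0.0212% higher and 0.0705% lower). DESeq2 and limma on TPM also called 0 of the 8, and 1 of the 8 (Prss57) had an unadjusted p under 0.05 in edgeR, where 6.35% of all tested genes did. The median log2 change of the 8 genes was -0.01, beside -0.00 over all tested genes, and their median absolute log2 change was 0.0488, beside 0.0685 over all tested genes and 0.0457 over the tested genes at a mean of 5 to 500 CPM.

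The 95% intervals were narrowest for the genes with the most counts. Mpo had 407.2 and 405.2 CPM in exRNaseA and 390.4 and 400.3 CPM in mock libraries. Its log2 change was 0.04 (SE 0.03, interval -0.01 to 0.09, edgeR adjusted p = 0.867). This leaves room for a level between 1.03% lower and 6.72% higher relative to the other genes. Serpinb1a had 238.3 and 232.5 CPM in exRNaseA and 256.3 and 234.8 CPM in mock libraries. Its log2 change was -0.06 (interval -0.14 to 0.01, edgeR adjusted p = 0.811). Elane (63.1 and 64.2 CPM in exRNaseA, 63.1 and 62.0 CPM in mock) had an interval of -0.07 to 0.12. Prtn3 (35.0 and 33.4 CPM in exRNaseA, 34.2 and 35.4 CPM in mock) had an interval of -0.15 to 0.10. The intervals lay within a log2 change of 0.5 either way for each of these genes and also for Ctsg (-0.13 to 0.13), Ms4a3 (-0.27 to 0.06) and Ctsc (-0.07 to 0.18). In all, 7 of the 8 genes (87.5%) were bounded this way, beside 67.1% of all tested genes and 96.7% of the 9107 tested genes at a mean of 5 to 500 CPM, the range that holds all 8.

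**Figure D4:**
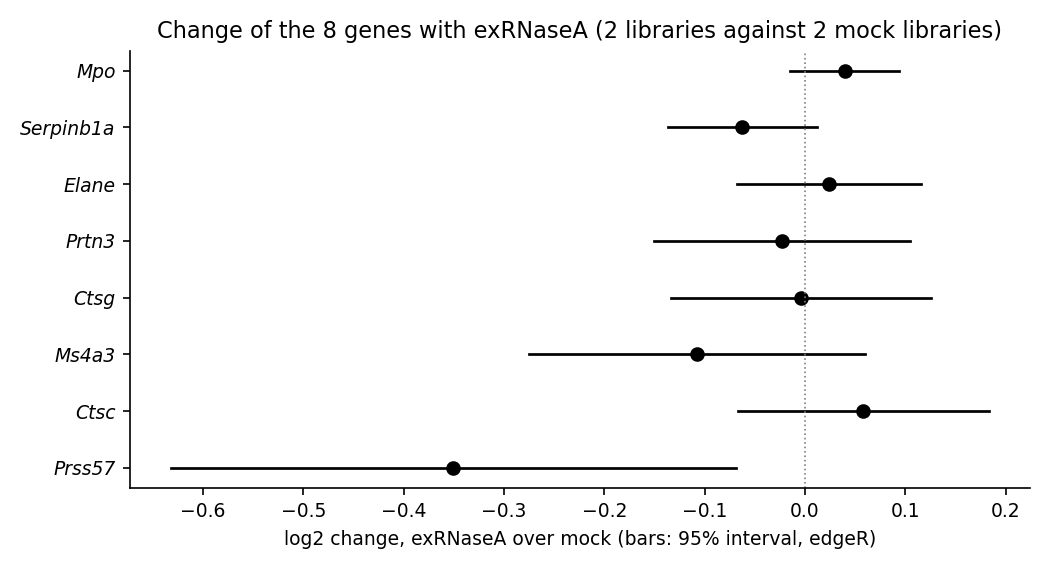
Log2 change, exRNaseA over mock, of each of the 8 genes (points) with the 95% interval from edgeR (bars), ordered by level. Only the interval of Prss57, -0.63 to -0.07, lies to one side of 0, and its adjusted p over all genes is 0.708.

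Prss57 had the largest difference and the fewest reads. It had 7.76 and 6.48 CPM in exRNaseA libraries and 8.37 and 9.78 CPM in mock libraries, and the groups did not overlap. The log2 change of -0.35 (SE 0.13, interval -0.63 to -0.07) had an unadjusted p of 0.0174 and did not pass over all genes (edgeR adjusted p = 0.708). The sum of Prss57 and Fstl3, which keeps the split reads together, stood at 9.08 and 7.96 CPM in exRNaseA and 10.2 and 12.2 CPM in mock libraries, a log2 ratio of means of -0.40. By TPM 3 of the 4 libraries lay between 5.15 and 5.29, and mock library 2 alone separated the groups' means, 5.22 ± 0.10 TPM in exRNaseA and 6.91 ± 2.39 TPM in mock libraries. The log2 change was -0.24 without mock library 2, and -0.22 without exRNaseA library 2.

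Among the 8 genes the exRNaseA libraries lay wholly above the mock libraries in CPM for 2 (Mpo and Ctsc) and wholly below for 1 (Prss57), where 17.7% and 18% of all tested genes did so and 35.7% did either. The other 5 overlapped. By TPM the exRNaseA libraries lay wholly above for 3 (Mpo, Elane and Ctsg) and wholly below for 0, where 24.8% and 11.3% of all tested genes did so. The spread between libraries of 1 group was of the same size as the differences between groups: on the log2 scale the mock libraries differed by 0.17 for Ms4a3, 0.13 for Serpinb1a and 0.22 for Prss57, and by 0.07 or less for the other 5, while the exRNaseA libraries differed by 0.26 for Prss57 and by 0.07 or less for the other 7. Ms4a3 and Serpinb1a shared a high value in mock library 1; without it the log2 change of Ms4a3 was -0.02 and that of Serpinb1a 0.0037, while without mock library 2 they were -0.19 and -0.12. For Ctsc the log2 change was 0.09 without mock library 1 and 0.03 without mock library 2. The 4 libraries had no common order over the 8 genes.

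**Figure D5:**
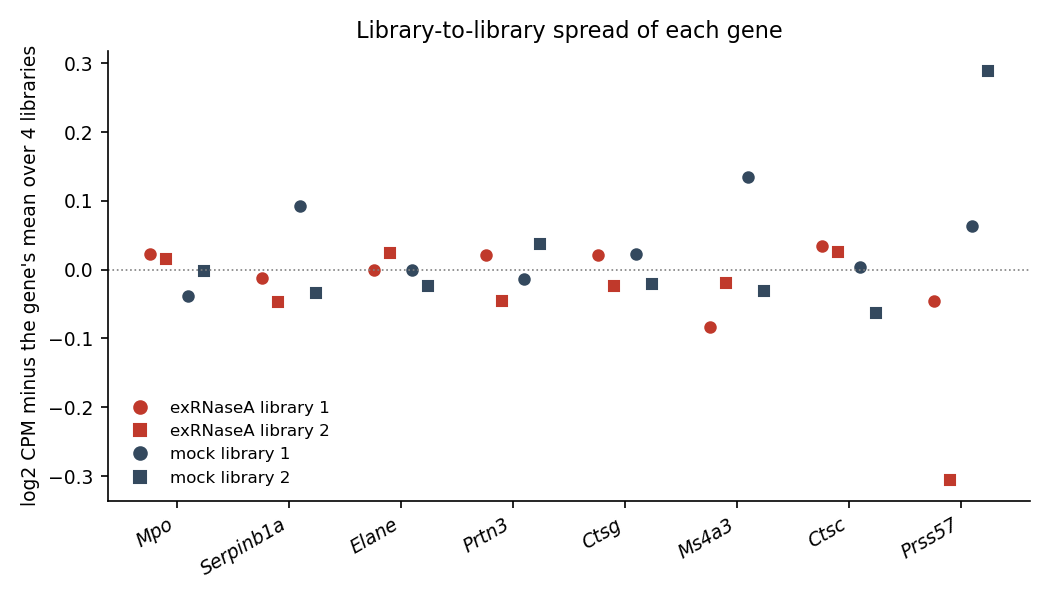
Log2 CPM of each gene in each library minus the mean of that gene over the 4 libraries, with exRNaseA in red and mock in dark blue. Prss57 spreads from -0.31 to 0.29, and mock library 1 is high for Serpinb1a (0.09) and Ms4a3 (0.13).

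The mean of the 8 centred profiles was -0.01 and -0.05 in exRNaseA libraries and 0.03 and 0.02 in mock libraries. Among the 7827 genes averaging 10 CPM or above, the 8 left out, the 5 whose centred log2 CPM lay nearest to it over the 4 libraries were Copa, Ltf, Trim5, Ly6c2 and Cd9, at Euclidean distances of 0.0046, 0.0055, 0.0067, 0.0076 and 0.0078, beside a median distance of 0.105. This mean was carried by Prss57, the gene with the fewest reads: without it the other 7 averaged 0.00 and -0.01 in exRNaseA libraries and 0.03 and -0.02 in mock libraries, and 0 of the 5 nearest genes were shared.

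Other genes of the granule pathway were read from lists; each count at an unadjusted p under 0.05 stands beside 6.35% of all tested genes. Of 21 other azurophil granule and lysosomal genes 20 were tested, and edgeR called 0 (4 at an unadjusted p under 0.05), as did DESeq2 and limma; the median log2 change was -0.02. Lyz2, which encodes lysozyme, was the most abundant (8221 ± 65.2 TPM in exRNaseA and 8336 ± 75.9 TPM in mock), followed by Srgn, the proteoglycan core that holds granule proteases (2893 ± 59.5 and 2904 ± 41.6 TPM), and Ctsd, a lysosomal protease (443 ± 12.6 and 440 ± 1.68 TPM). Bpi, which encodes an azurophil granule protein in human neutrophils, averaged 0.03 TPM over the 4 libraries. Lyz2 passed the test only without exRNaseA library 1 (log2 change -0.07, edgeR adjusted p = 0.00392), against -0.05 and 0.628 with all 4 libraries.

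Of 17 protease inhibitor genes 13 were tested, and edgeR called 0 (1 at an unadjusted p under 0.05, Cst3 with a log2 change of -0.10), as did DESeq2 and limma; the median was -0.06. The stefin Stfa2l1 stood at 753 ± 29.4 TPM in exRNaseA and 765 ± 48.9 TPM in mock libraries; stefin genes have near-identical copies, so this value is uncertain. Slpi, an elastase inhibitor, stood at 564 ± 11.0 and 557 ± 10.3 TPM, and Cst3 (cystatin C) at 172 ± 6.30 and 178 ± 3.51 TPM. Both Stfa2l1 and Slpi had higher levels than Serpinb1a.

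Of 12 genes for haem synthesis and the endoplasmic reticulum chaperones that myeloperoxidase maturation uses, 12 were tested, and edgeR called 0 (2 at an unadjusted p under 0.05), as did DESeq2 and limma; the median was 0.03. The chaperones Hspa5 (345 ± 4.21 TPM in exRNaseA and 352 ± 1.95 TPM in mock), Calr (283 ± 6.14 and 280 ± 3.34 TPM) and Canx (132 ± 0.88 and 128 ± 4.09 TPM) were the most abundant of this list.

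Of 20 granule sorting and release genes 19 were tested, and edgeR called 0 (0 at an unadjusted p under 0.05), as did DESeq2 and limma; the median was -0.01. The highest were Stxbp2, a partner of syntaxins in granule release (256 ± 11.6 TPM in exRNaseA and 243 ± 30.5 TPM in mock), and the membrane fusion genes Snap23 (223 ± 0.22 and 217 ± 1.22 TPM) and Vamp8 (175 ± 6.14 and 175 ± 1.77 TPM). Ap3s1, a subunit of the AP-3 sorting complex, stood at 139 ± 1.15 and 141 ± 0.20 TPM.

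Of 12 transcription factors of early granulopoiesis 12 were tested, and edgeR called 0 (1 at an unadjusted p under 0.05), as did DESeq2 and limma; the median was 0.01. Spi1, which encodes PU.1, stood at 372 ± 14.5 TPM in exRNaseA and 354 ± 6.10 TPM in mock libraries, Cebpb at 117 ± 15.0 and 104 ± 2.96 TPM and Myb at 97.7 ± 4.97 and 93.5 ± 1.34 TPM. The Cebpb libraries overlapped in TPM, with exRNaseA library 2 high at 128 TPM. Of 12 other promyelocyte and progenitor markers 11 were tested, and edgeR called 0 (2 at an unadjusted p under 0.05), as did DESeq2 and limma, with a median of 0.02. In CPM the exRNaseA libraries lay wholly above for 3 of the 11 and wholly below for 2 (17.7% and 18% of all tested genes). In TPM they lay wholly above for 5 and wholly below for 1 (24.8% and 11.3% of all tested genes). Tuba1b, a tubulin of dividing cells, stood at 303 ± 8.12 and 293 ± 3.65 TPM, Clec12a, a myeloid lectin receptor, at 225 ± 8.29 and 230 ± 9.35 TPM and Mki67, a proliferation marker, at 217 ± 9.14 and 203 ± 0.64 TPM. Without exRNaseA library 1 the log2 change of Cebpb was 0.24 (edgeR adjusted p = 0.00631) and that of Mki67 was 0.08 (edgeR adjusted p = 0.050), against 0.13 and 0.05 with all 4 libraries; without exRNaseA library 2 that of Cebpb was 0.0029.

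The log2 change was below 0 for 14 of 16 secondary and tertiary granule genes (median -0.05), and in 12 both exRNaseA libraries lay below both mock libraries in CPM, where 18% of all tested genes did so. By TPM only 4 of the 16 (Camp, Itgam, Lcn2 and Olfm4) lay wholly below and 4 (Cyba, Cybb, Mmp25 and Mmp9) wholly above, where 11.3% of all tested genes lay below and 24.8% above, so the count of 12 rests on the CPM scale. edgeR made 0 calls among the 16 (8 at an unadjusted p under 0.05, beside 6.35% of all tested genes), as did DESeq2 and limma. Among the 8 primary granule genes, for comparison, 5 had a negative log2 change and 1 had exRNaseA libraries wholly below the mock libraries; the difference between these lists was not tested. Of the 12 neutrophil markers, some of which are on the same list, edgeR, DESeq2 and limma called 0. In CPM 9 of the 12 lay wholly below the mock libraries (18% of all tested genes), in TPM 5 lay wholly below and 1, Mmp9, wholly above, and 10 had an unadjusted p under 0.05 (6.35% of all tested genes). Their part in the values of the granule genes was not tested. Among the secondary granule genes, Ltf passed without exRNaseA library 1 (log2 change -0.07, edgeR adjusted p = 0.000327), and Ngp passed without exRNaseA library 2 (-0.07, edgeR adjusted p = 0.00681) and with no filter on low counts (-0.05, edgeR adjusted p = 0.020).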

How the data were processed

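The submitters' processing notes name STAR 2.4.2a, RSEM 1.3.3 and the mm10 build as what the authors used. The deposited gene files hold expected counts, TPM, FPKM and isoform-weighted lengths, per the file headers. The deposited small RNA table holds RPM, reads scaled to library size, for each sequence. The sources used here give neither annotation release nor strand setting.

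Symbols matched 55450 of 55536 gene IDs. Positions and promoters came from RefSeq (GRCm38.p6). Expected counts were rounded to whole numbers. In edgeR 4.0.16 (R 4.3.3), filterByExpr kept 14184 genes, TMM factors were 0.993 to 1.01, and the quasi-likelihood F test was adjusted over all of them at 0.05. Intervals (95%) were derived from the F value. CPM are TMM-scaled. Alternatives were DESeq2 1.42.0, limma 3.58.1 on log2(TPM + 1), log2(TPM + 0.1) and log2(FPKM + 1), other scalings and filters, a replicate block, and each library left out. The fits were tested on simulated data.

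The 8 genes, lists and tests were chosen with earlier results of these data known. Besides the 8, the named genes are the 3 most abundant and the lowest-p gene of each list, the chromosome 10 neighbours and the 5 nearest profiles; 1 gene that the rule names is not reported here. Bpi, Epx, Ly6g, Tpsb2, Tpsab1, Gm11505, Gm34064 and the promoter motifs were chosen after values or sequences were seen, as were the counts by TPM and the profile without Prss57.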

Additional observations from a re-analysis of the deposited data

Results flagged for a closer look

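The small RNA table, which none of the comparisons above used, held 4 sequences of its genome-mapped class inside the spans of 2 of the 8 genes, Mpo and Serpinb1a; 6.23% of 21900 protein-coding RefSeq genes held at least 1. Each was flagged because it stood above the matched input library, and with 1 library per group there is no replicate check. A sequence found in only 1 library is listed through that library alone, so its place above the input cannot be read as a result. The sequences are shown because they are the sequences of the genome-mapped class, the only class searched, that lie in these genes.
Mpo, first: agctccttgcctgcctcattg
Mpo, second: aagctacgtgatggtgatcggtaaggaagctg
Serpinb1a, first: ttctggacgactccatcctcaaacttta
Serpinb1a, second: tggaccaaacgtgagaact
The Mpo sequences lie close together on the plus strand of chromosome 11 (mm10), the first at 87802695 to 87802715 and the second at 87802730 to 87802761. In HOXB8 cells, a myeloid progenitor line, after differentiation, the first stood at 13.5 RPM after biotin capture and the second at 14.6 RPM after wheat germ agglutinin (WGA) capture, against 0 RPM for both in the input, and both were at 0 in all other libraries. The Serpinb1a sequences lie on the minus strand of chromosome 13 (mm10), the first at 32842519 to 32842546 and the second at 32843168 to 32843186. In primary neutrophils they stood at 14.1 and 37.7 RPM after WGA capture, against 0 and 0.32 RPM in the input. The second of them was also at 0.53 RPM in the input of undifferentiated HOXB8 cells. Sequences this short may occur elsewhere in the genome, so the positions are uncertain.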

How the results depend on the processing

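None of the 8 genes was called under any alternative run, and their lowest adjusted p was 0.321 (Prss57; its log2 change ran from -0.48 to -0.22, negative in all 15 settings). At 10 CPM in 2 libraries only 7 of the 8 were tested. The count over all genes moved more: 13 genes were called as reported, against 8 with DESeq2, 149 with no filter on low counts, 7 at 10 CPM in 2 libraries, 7 with limma on log2(TPM + 1), 8 on log2(TPM + 0.1), 7 on log2(FPKM + 1), 0 by limma with no filter, and 3 without the 5 genes that carry rRNA sequence. Leaving out 1 library gave 9 to 74 calls: 59 without exRNaseA library 1, 29 without exRNaseA library 2 and 74 without mock library 1. With the replicate block there were 55 calls and 0 among the 8 genes. In their titles same-numbered libraries share only the replicate number. Their deviations had a correlation of 0.0415 across 7828 genes, which with 2 libraries per group cannot show whether they were paired.

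The log2 ratio of summed levels was 0.039 by TPM, 0.023 by FPKM, -0.0019 by CPM with TMM, 0.017 by CPM on total counts, 0.012 without Mpo, and 0.030 to 0.048 with 1 library left out. Its ratio to the later granule genes had a log2 change of 0.052, or 0.026 without Mpo and 0.035 to 0.070 with 1 library left out. The cause of the moves in these ratios was not tested. The order of levels changed in 4 places by CPM, which are not per length. Ctsc, at 2217 to 2615 bases, moved ahead of Prtn3 (885 to 901 bases), Ctsg (998 to 1002 bases) and Ms4a3 (997 to 1015 bases).

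Log2 changes near 0 turned sign for 13 of the 44 genes under the naming rule, 3 of them among the 8 (14 of 127 values). On total counts the log2 change stood for Ctsg at 0.014, Slpi at 0.015 and Vamp8 at 0.00090. In limma on log2(TPM + 1), with and without the filter, it stood for Prtn3 at 0.029, Ctsg at 0.035, Ctsd at 0.0082, Slpi at 0.018, Calr at 0.019, Snap23 at 0.041, Vamp8 at 0.00095, Palm at -0.064 and Ctsl at 0.059. On log2(TPM + 0.1) it stood for Prtn3 at 0.030, Ctsg at 0.035, Ctsd at 0.0082, Slpi at 0.018, Calr at 0.019, Snap23 at 0.041, Vamp8 at 0.00095, Palm at -0.065 and Ctsl at 0.060. On log2(FPKM + 1) it stood for Prtn3 at 0.014, Ctsg at 0.019, Slpi at 0.0027, Calr at 0.0031, Snap23 at 0.025, Palm at -0.079 and Ctsl at 0.043. With 1 library left out it ran from -0.055 to 0.011 for Prtn3, -0.025 to 0.019 for Ctsg, -0.12 to 0.0037 for Serpinb1a, -0.069 to 0.010 for Ctsd, -0.12 to 0.014 for Stfa2l1, -0.035 to 0.029 for Slpi, -0.037 to 0.0017 for Vamp8, -0.0075 to 0.057 for Myb and -0.092 to 0.046 for Ptbp1. None of these values passed the threshold.

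Depth limits Prss57 most, at 149 to 202 expected counts.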

Other observations

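Granule protease relatives, lysosomal proteases and eosinophil granule genes, read as 1 list, were mostly low. Of 18 such genes 7 were tested; edgeR called 0 (2 at an unadjusted p under 0.05, beside 6.35% of all tested genes), as did DESeq2 and limma, and the median log2 change was -0.04. Prg2, the eosinophil major basic protein, stood at 408 ± 16.9 TPM in exRNaseA and 420 ± 5.42 TPM in mock libraries, above each of the 8 primary granule genes. Epx, the eosinophil peroxidase and a relative of Mpo, had 29.5 and 28.5 TPM in exRNaseA and 27.5 and 28.7 TPM in mock libraries. The lysosomal proteases Ctsh (118 ± 2.86 TPM in exRNaseA and 119 ± 1.99 TPM in mock) and Ctsl (81.4 ± 1.41 and 78.0 ± 1.20 TPM) lay within the range of the 8 genes. Mcpt8, a basophil protease, had 2.05 and 2.85 TPM in exRNaseA and 4.78 and 3.07 TPM in mock libraries (log2 change -0.73, edgeR adjusted p = 0.759), from 19 to 52 counts. Its log2 change was -0.36 without mock library 1 and -1.01 without mock library 2. The mast cell tryptases Tpsb2 and Tpsab1 were listed at 0 in all 4 libraries.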
